A study of Capra hircus with 9 samples.

Results

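The mature miRNAs of the miR-33 and miR-378 hairpins were examined in the mammary gland of dairy goats. All rows of the deposited count table whose name starts with chi-miR-33a, chi-miR-33b or chi-miR-378 were taken, which gave 6 of 1359 listed miRNAs, the 5p and the 3p arm of each of 3 hairpins. The glands came from 9 healthy Laoshan dairy goats, which had a mean age of 4 years and were in parity 3. They were sampled 240 days postpartum for late lactation (LL, n = 3), 300 days postpartum for the dry period (DP, n = 3) and 140 days after mating for late gestation (LG, n = 3), with 1 small RNA library per goat. The labels name no treatment or genetic change, and each goat was sampled at 1 stage after slaughter, so different stages are different goats.

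A miRNA is a short RNA that guides the silencing complex to matching messenger RNAs and lowers their output. Its hairpin precursor yields a 5p and a 3p arm, of which one is usually kept and the other is mostly degraded. In mammals miR-33a and miR-33b lie within the genes SREBF2 and SREBF1. These encode the SREBP transcription factors that switch on cholesterol and fatty acid synthesis, and miR-33 is known for repressing the cholesterol exporter ABCA1 and enzymes of fatty acid oxidation. miR-378 lies within PPARGC1B, which encodes the coactivator PGC-1β of mitochondrial and lipid genes, and it is known from fat, liver and muscle. The mammary gland makes milk fat in lactation and regresses in the dry period, which is the setting in which these miRNAs were compared.

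The goat annotation (ARS1.2) placed each of the 3 hairpins inside 1 protein-coding gene. MIR33A lay on chromosome 5 from 111847271 to 111847347, within SREBF2 (111788195 to 111853028) and 59076 bases from the lower end of its span. MIR33B lay on chromosome 19 from 34294280 to 34294373, within the much shorter SREBF1 (34288792 to 34295549). MIR378 lay on chromosome 7 from 49342624 to 49342733, within PPARGC1B (49224063 to 49345243) and 2510 bases from the upper end of its span. Strands were not compared, and by position alone the goat hairpins lie within the genes known to host the mammalian ones. Whether they lie in an exon or an intron was not analysed here, since the annotation used gives gene spans only. The nearest other annotated miRNA gene was 262 kb from MIR378 (MIR145) and 2694 kb (MIR1249) and 3201 kb (MIR196A) from MIR33A and MIR33B.

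The counts of a library summed to between 13672653 and 34378995, so that 3 counts, the level a count of 0 still allows, correspond to between 0.0873 and 0.219 CPM, the counts scaled to a common library total. Levels below are CPM after TMM scaling of the libraries unless said otherwise, and fold changes come from edgeR's quasi-likelihood test on all 696 miRNAs that reached 0.5 CPM in 3 or more libraries. A miRNA was called differentially expressed where the adjusted p (Benjamini-Hochberg) was below 0.05 and the log2 fold change was above 1 or below −1. Of the 6 arms, 4 passed the limit on the level and were tested. None of the 6 had counts equal to those of another row in all libraries. In bulk tissue, fewer cells of a type and less RNA per cell cannot be told apart.

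miR-378 was abundant in the gland and fell in the dry period. Its 3p arm, chi-miR-378-3p, had 3908, 3657 and 2940.0 CPM in LL, 691, 872 and 1082 CPM in DP, and 4404, 2911 and 4439 CPM in LG. Every DP library was below every library of the other stages, while LL and LG overlapped. The means were 3502 ± 503 CPM in LL, 882 ± 196 CPM in DP and 3918 ± 872 CPM in LG (SD, n = 3 each). Within a library, chi-miR-378-3p ranked between 18 and 32 among the listed miRNAs in LL and LG and between 55 and 72 in DP.

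The 5p arm of the same hairpin was far rarer and had the same order of stages. chi-miR-378-5p had 27.2, 28.2 and 17.9 CPM in LL, 5.71, 5.70 and 7.76 CPM in DP, and 28.2, 23.2 and 27.6 CPM in LG. Again each DP library lay under all others, and LL and LG overlapped. The means were 24.4 ± 5.66, 6.39 ± 1.19 and 26.3 ± 2.72 CPM (SD, n = 3 each).

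**Figure D1:**
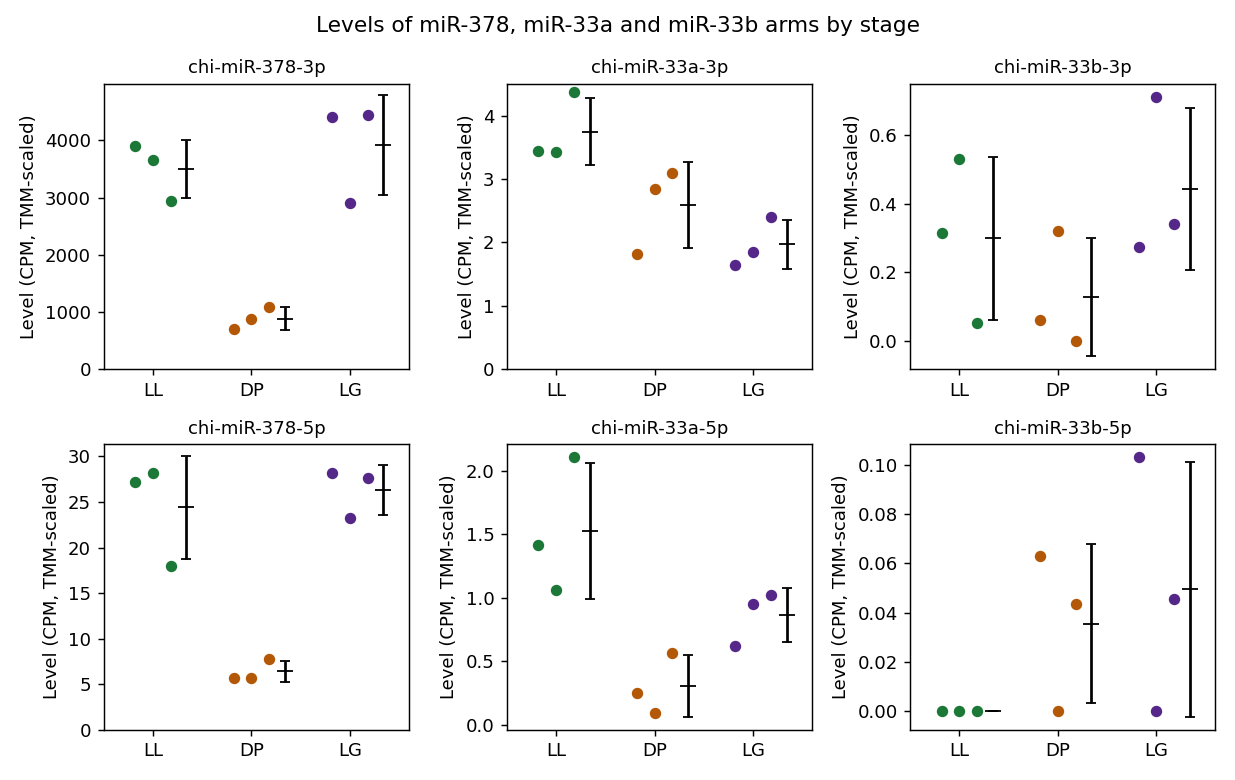
Level of each arm (vertical axis, CPM scaled by TMM, a separate linear scale per panel) in the libraries of LL, DP and LG (points), with the mean and SD of 3 goats (bars). Both arms of miR-378 are lowest in DP, with chi-miR-378-3p between 691 and 1082 CPM there, and both arms of miR-33b stay under 1 CPM in every library.

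In DP vs. LG, 2 of the 4 tested arms were called, both of miR-378 and both lower in DP, where 31.5% of all 696 tested miRNAs were called. chi-miR-378-3p was 4.44-fold lower in DP by its means, and its log2 fold change was −2.15 ± 0.26 (SE; adjusted p = 0.000226, edgeR). The value for chi-miR-378-5p was −2.04 (SE 0.30, adjusted p = 0.000628, edgeR). The median log2 fold change of all tested miRNAs in this comparison was 0.18, a value that the scaling places near 0.

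In DP vs. LL, 3 of the 4 tested arms were called, all lower in DP, where 26.7% of all tested miRNAs were called. They were both arms of miR-378 and chi-miR-33a-5p, of which the latter passed the limit on the level through LL and LG (1 of 3 DP libraries reached it), so the count is not read against that share. chi-miR-378-3p was 3.97-fold lower in DP than in LL, and its log2 fold change was −1.99 ± 0.26 (SE; adjusted p = 0.000386, edgeR). That of chi-miR-378-5p came to −1.93 ± 0.30 (SE; adjusted p = 0.00105, edgeR). Both comparisons use the same DP libraries. The calls of both arms of miR-378 held without any 1 of the 9 libraries, and the log2 fold change of chi-miR-378-3p in these fits lay between −2.54 and −2.16 against LG and between −2.21 and −1.79 against LL.

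In LL vs. LG, 0 of the 4 tested arms were called by edgeR, DESeq2 or limma-voom, where edgeR called 12.8% of all tested miRNAs. That share rests on 89 calls, and the number of calls was 33 when LL replicate 1 was left out, 36 for LL replicate 2, 54 for LG replicate 1 and 41 for LG replicate 3. By edgeR 1 of the 4, chi-miR-33a-3p, had an unadjusted p under 0.05 there. The log2 fold change of chi-miR-378-3p was −0.16 with a 95% interval from −0.71 to 0.38, and that of chi-miR-378-5p was −0.11 with an interval from −0.74 to 0.52. These intervals do not show the stages to be alike. The scaling moved this comparison most. As plain shares of the library's counts, chi-miR-378-3p took 0.283% ± 0.0581 in LL, 0.0908% ± 0.0172 in DP and 0.474% ± 0.115 in LG (SD, n = 3 each), and LL and LG no longer overlapped. Scaled by library size only, the LL vs. LG difference was −0.74 on the log2 scale (adjusted p = 0.0742, edgeR), under the limits for a call, and the median of all tested miRNAs moved from 0.17 to −0.42. The fall in DP passed under each scaling tried, with log2 fold changes of chi-miR-378-3p of −2.11 to −1.64 against LL across the alternatives other than leaving out a library.

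**Figure D2:**
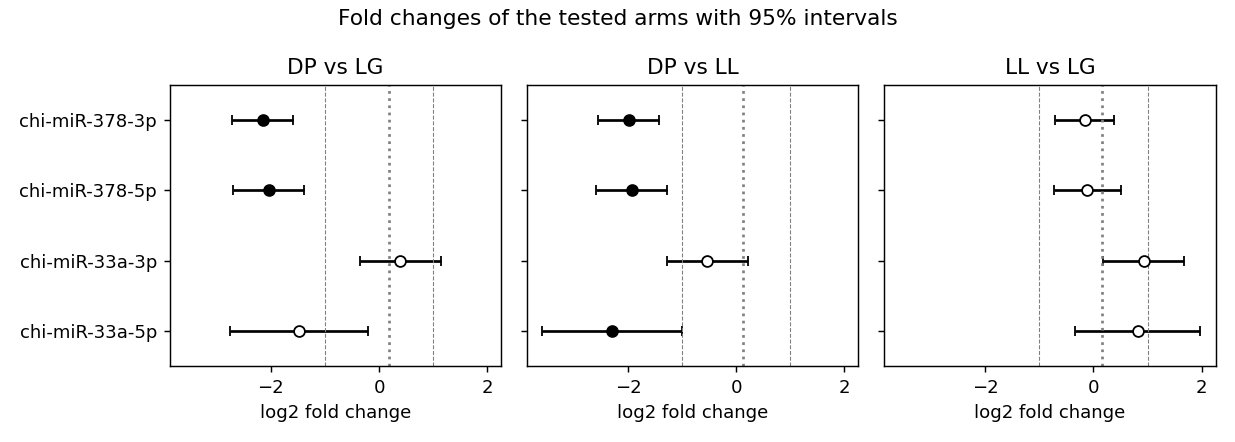
Log2 fold change (horizontal axis) of the 4 tested arms in DP vs. LG, DP vs. LL and LL vs. LG, with 95% intervals from edgeR's test; filled points were called, dashed lines mark −1 and 1, and the dotted line is the median of all 696 tested miRNAs. Both arms of miR-378 lie near −2 in the comparisons with DP and near 0 in LL vs. LG, and the estimate of chi-miR-33a-5p is below that of chi-miR-33a-3p in the comparisons with DP, with overlapping intervals.

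Both arms come from one hairpin, and the ratio of any pair of rows within a library does not depend on how libraries are scaled. For miR-378 the counts of the 3p arm were between 121 and 164 times those of the 5p arm in the 9 libraries. The log2 ratio (0.5 added to each count) was 7.18 ± 0.17 in LL, 7.09 ± 0.17 in DP and 7.19 ± 0.20 in LG (SD, n = 3 each). The stages overlapped, and the ratio did not differ between them beyond its spread (exact permutation test of the spread between stages over 1680 assignments of the libraries, one-sided, p = 0.75). The mean log2 ratio in DP differed by −0.10 from that in LG and by −0.09 from that in LL.

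**Figure D3:**
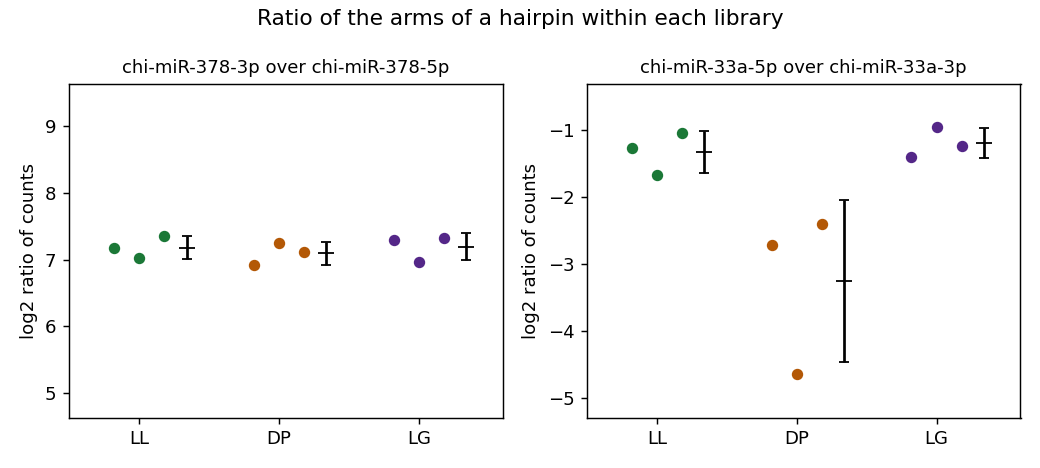
Log2 ratio of the counts of both arms of a hairpin (vertical axis, the same span in each panel) by stage, with 1 point per library and the mean and SD of 3 goats. The ratio of miR-378 stays between 6.91 and 7.36 in all libraries, whereas that of miR-33a drops in each DP library.

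The markers of epithelium, the tissue layer that makes milk, were split. The epithelium list (the miR-200 family with miR-141 and miR-429, and miR-183, miR-96 and miR-182, 8 rows, none at 0) summed to 35325 to 43018 CPM in LL, 14060 to 22385 CPM in DP and 34932 to 38642 CPM in LG, a lower sum in every DP library. Of its 8 members, all tested, 3 fell and 0 rose in DP vs. LG (median log2 fold change −0.85), beside 31.5% of all miRNAs called there, and 5 fell and 1 rose in DP vs. LL (median −1.05), beside 26.7%. The members that fell were all of the miR-200 family. chi-miR-200b, the most abundant, fell from 23642 ± 2726 CPM in LL to 10916 ± 2794 CPM in DP (log2 fold change −1.11, adjusted p = 0.00444, edgeR). The estimates of chi-miR-182, chi-miR-183 and chi-miR-96, members looked at after their values were seen, were above 0 in both comparisons, and chi-miR-183 rose in DP vs. LL (1.18, adjusted p = 0.0441, edgeR). In LL vs. LG 0 of the 8 were called (edgeR, 2 at an unadjusted p under 0.05). The part of epithelial content in the fall of miR-378 was not tested.

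Counts of chi-miR-378-3p amounted to 10.4%, 8.50% and 8.32% of those of the epithelium list in LL. In DP they amounted to 3.09%, 4.37% and 7.70%, and in LG to 11.4%, 8.33% and 11.7%. All 3 DP libraries were below the others, and DP replicate 3 lay close to the lowest LL library. The log2 of this ratio was −3.47 ± 0.18 in LL, −4.41 ± 0.67 in DP and −3.27 ± 0.27 in LG (SD, n = 3 each), a difference of −0.94 against LL and of −1.14 against LG, each at an exact permutation p of 0.10, the smallest that 3 against 3 libraries allow. Over all 3 stages the exact permutation p was 0.0179 (1680 assignments, one-sided), a comparison chosen after the data were seen. Since the list itself was split, this ratio does not measure the level per epithelial cell. The exact permutation p rose to 0.0607 without LL replicate 2 and to 0.0571 without LL replicate 3, LG replicate 1 or LG replicate 3.

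**Figure D4:**
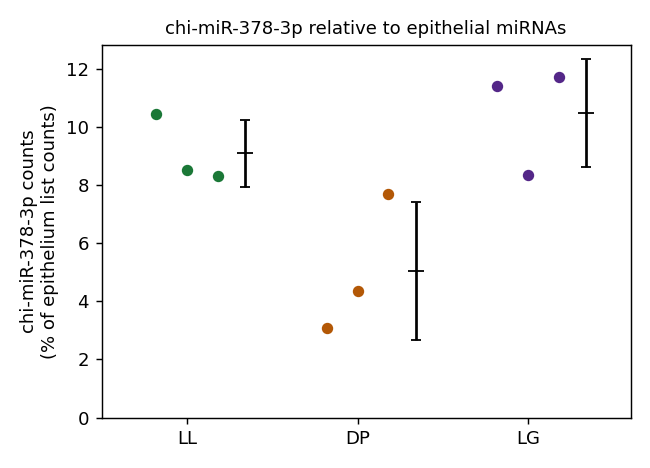
Counts of chi-miR-378-3p as a percent of the summed counts of the epithelium list in the same library (vertical axis, from 0) by stage, with 1 point per goat and the mean and SD of 3. The DP goats lie at 3.09% to 7.70% and the others at 8.32% or more.

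miR-378 is also known from skeletal muscle. The muscle list (8 rows, chi-miR-208b at 0 in all libraries and chi-miR-499-3p at 0 in DP) summed to 722 to 933 CPM in LL, 971 to 3448 CPM in DP, with a median of 1071 CPM, and 420 to 531 CPM in LG. Of its 6 tested members, 2 rose in DP vs. LG and 1 in DP vs. LL, and 0 fell, beside 31.5% and 26.7% of all miRNAs called. chi-miR-1, its most abundant member, had 1683 ± 1335 CPM in DP, and was called against LG (log2 fold change 2.07, adjusted p = 0.00552, edgeR) but not against LL (1.28, adjusted p = 0.0501, edgeR).

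The stroma list summed to 86077 to 212412 CPM in DP, 92074 to 145874 CPM in LL and 68083 to 75990 CPM in LG. It held 12 rows, of which both arms of miR-199b and miR-199c had equal counts, so that 10 were distinct. chi-miR-199a-3p was nearly equal to chi-miR-199b-3p (19786 and 19763 CPM in DP), so the 10 distinct rows are not all separate signals. Of these 10, 7 rose in DP vs. LG and 6 in DP vs. LL, beside 31.5% and 26.7% of all miRNAs called, and 0 fell. The sums count the equal and nearly equal rows separately. Its most abundant member, chi-miR-143-3p, had 0.14 on the log2 scale in DP vs. LG (not called, adjusted p = 0.832, edgeR).

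The list of blood and immune cells summed to 367 to 517 CPM in LG, 998 to 1365 CPM in LL and 1354 to 3252 CPM in DP (9 rows, chi-miR-155-3p at 0 in LG). Of its 7 tested members, 5 were higher in DP than in LG (31.5% of all miRNAs called), 1 was higher in DP than in LL (26.7%; median log2 fold change −0.30) and 3 were higher in LL than in LG (12.8%), with 0 lower in each. The level of chi-miR-155-5p, an inflammatory miRNA and the most abundant of this list by its mean over all libraries, was 465 CPM in LL, 818 ± 251 CPM in DP and 175 CPM in LG. The part of these cells in the levels of miR-378 and miR-33 was not tested.

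Among 228 other known miRNAs whose mean reached 10 CPM, 3 had a profile across the 9 libraries closest to that of chi-miR-378-3p, measured as the root mean square difference of log2 CPM after centring each on its own mean. They were chi-miR-363-3p (difference 0.36), chi-miR-148a-5p (0.40) and chi-miR-423-3p (0.42), where the median over the 228 was 1.34 and the other arm, chi-miR-378-5p, had 0.15. chi-miR-363-3p had 39.2 ± 6.22 CPM in LL, 11.7 ± 1.87 in DP and 34.1 ± 5.18 in LG. chi-miR-423-3p had 1683 ± 257, 502 ± 83.7 and 1383 ± 189.9 CPM in the same order. These likenesses are a description over libraries that share their stages.

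miR-33a was rare in these glands. chi-miR-33a-3p, the more abundant arm, had 44, 52 and 81 counts in LL, 29, 62 and 71 in DP and 48, 47 and 106 in LG. Its level was 3.75 ± 0.54 CPM in LL, 2.59 ± 0.68 CPM in DP and 1.97 ± 0.39 CPM in LG (SD, n = 3 each). LL lay above both other stages, which overlapped. As shares of the library's counts, all stages overlapped, so the separation of LL rests on the scaling. The means kept their order by library size, at 3.01 CPM in LL, 2.65 CPM in DP and 2.39 CPM in LG.

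None of the differences of chi-miR-33a-3p passed the test. In LL vs. LG the log2 estimate was 0.93 ± 0.34 (SE; adjusted p = 0.0882, edgeR), with a 95% interval from 0.18 to 1.68, and 0.33 by library size only. Its DP vs. LL value was −0.53 (SE 0.34, adjusted p = 0.259, edgeR) and its DP vs. LG value 0.40 (SE 0.34, adjusted p = 0.417, edgeR). With chi-miR-33a-3p as the reference, chi-miR-197-3p (root mean square difference 0.23), chi-let-7b-3p (0.25) and chi-miR-151-3p (0.27) had the closest profiles, against a median of 0.79. The means in LL, DP and LG were 70.3, 49.0 and 47.5 CPM for chi-miR-197-3p and 33.0, 20.8 and 20.5 CPM for chi-let-7b-3p. For chi-miR-151-3p they were 4560, 4550 and 2873 CPM, nearly equal in LL and DP, so a small difference does not mean the same steps between stages.

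chi-miR-33a-5p, the arm known for repressing ABCA1, was the rarer arm in these glands and lowest in DP. It had 18, 16 and 39 counts in LL, 4, 2 and 13 in DP and 18, 24 and 45 in LG. Its level was 1.52 ± 0.53 CPM in LL, 0.303 ± 0.242 CPM in DP and 0.861 ± 0.214 CPM in LG (SD, n = 3 each). No DP library overlapped with another stage, with either TMM or library size scaling. It reached 0.5 CPM in 7 libraries, of which 1 was from DP, so it passed the limit on the level through LL and LG.

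In DP vs. LL, chi-miR-33a-5p was the third arm called, at −2.30 ± 0.59 on the log2 scale (SE; adjusted p = 0.0135, edgeR). The call depended on single LL libraries and its size on single DP libraries. Without LL replicate 1 the adjusted p was 0.0508 and without LL replicate 3 it was 0.0651 (edgeR), at log2 fold changes of −2.21 and −1.98. The log2 fold change moved to −3.23 without DP replicate 3 and to −1.75 without DP replicate 2, and was called in both cases. Against LG its estimate was −1.47 ± 0.58 (SE; adjusted p = 0.0704, edgeR), and over the alternatives the adjusted p ranged from 0.00940 to 0.165, with 8 of 18 past the limits. Here the estimate moved to −2.60 without DP replicate 3 (adjusted p = 0.00940, edgeR) and to −1.11 without DP replicate 2 (adjusted p = 0.165, edgeR). LL vs. LG gave 0.82 (SE 0.52, adjusted p = 0.310, edgeR), and these stages overlapped by library size but not with TMM.

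The arms of miR-33a did not keep one ratio. Over the libraries of a stage, chi-miR-33a-5p held 29.2% of the counts of both arms in LL and 30.2% in LG, and 10.5% in DP. The log2 ratio of the 5p to the 3p arm was −1.27, −1.67 and −1.04 in LL, −2.71, −4.64 and −2.40 in DP, and −1.39, −0.96 and −1.23 in LG. The ratio was lower in each DP library than in every other library, and LL and LG overlapped. It differed between the stages (exact permutation test over 1680 assignments, one-sided, p = 0.0214), whereas pairs of stages of 3 libraries cannot go below an exact permutation p of 0.10, the value that DP gave against LL and against LG. With 1 or 5 added to each count in place of 0.5 the exact permutation p stayed at 0.0214. Leaving out LL replicate 1 gave 0.05 and LL replicate 2 gave 0.0571. Leaving out LG replicate 2 gave 0.0679 and LG replicate 3 gave 0.0536. The lowest ratio, that of DP replicate 2, rests on 2 counts of the 5p arm.

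miR-33b, the copy within SREBF1, was barely detected. chi-miR-33b-3p had 4, 8 and 1 counts in LL, 1, 7 and 0 in DP and 8, 18 and 15 in LG, and was under the limit for testing. Pooled over the libraries of a stage, it had 0.223 CPM in LL (95% Poisson interval 0.119 to 0.382, counting error only), 0.134 CPM in DP (0.0581 to 0.265) and 0.505 CPM in LG (0.363 to 0.686), relative to the plain library size. When no limit was set, DP vs. LG gave −2.09 on the log2 scale (SE 0.92, adjusted p = 0.140, edgeR). By library size the LG libraries lay above the DP ones, and with TMM they overlapped.

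chi-miR-33b-5p had no counts in any LL library, 1, 0 and 1 in DP and 3, 0 and 2 in LG. A count of 0 in all of LL allows up to 0.0516 CPM over that stage. All libraries were at or below 3 counts, so no fold change is given, and differences between stages were not detectable at this depth.

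The goat table also held other miRNAs known for lipid pathways (cholesterol efflux, lipoproteins, adipocytes and insulin). Of 19 such miRNAs 18 were listed, with 33 arms, of which 32 were tested. The list shares miR-143 and miR-145 with the stroma list, and miR-144 and miR-223 with the list of blood and immune cells. Calls of the shared arms are counted under both lists. In DP vs. LG, 7 rose and 2 fell in DP, beside 31.5% of all tested miRNAs called, with a median log2 fold change of 0.34 beside 0.18 for all tested miRNAs. In DP vs. LL, 5 rose and 5 fell, beside 26.7% called, with a median of −0.01 beside 0.12. In LL vs. LG 5 were higher and 1 was lower in LL, beside 12.8% called, with a median of 0.48 beside 0.17. The arms higher here and those that rose in DP vs. LG both include chi-miR-145-3p, chi-miR-223-3p and chi-miR-223-5p, which are shared with the cell type lists. In the comparisons with DP the counts of called arms are near the share called among all miRNAs.

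Single members of the list moved in either direction. chi-miR-148a-3p, which averaged 676430 ± 137872 CPM in LL and is known as a repressor of the LDL receptor and ABCA1, fell in DP with log2 fold changes of −2.87 against LL (adjusted p = 2.49e-05, edgeR) and −1.93 against LG (adjusted p = 0.000159, edgeR). chi-miR-26a-5p rose in DP, from 39052 ± 4566 CPM in LL to 84001 ± 46479 CPM in DP (log2 fold change 1.11, adjusted p = 0.0260, edgeR) and from 32072 ± 983 CPM in LG (log2 fold change 1.39, adjusted p = 0.00769), with a wide spread in DP. chi-miR-26b-5p also rose in DP vs. LG, by 1.61 (adjusted p = 0.00351, edgeR).

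miR-103 lies in a gene of pantothenate kinase, a further miRNA with a metabolic host, and its profile was not that of miR-378. chi-miR-103-3p had 7169 ± 447 CPM in LL, 2413 ± 345 CPM in DP and 2679 ± 396 CPM in LG. It fell in DP vs. LL (log2 fold change −1.57, adjusted p = 0.000386, edgeR) and was higher in LL than in LG (1.42, adjusted p = 0.00208), where chi-miR-378-3p had −0.16. Among the listed miRNAs called higher in LL than in LG, those with the largest means after it were chi-miR-145-3p (log2 fold change 1.22, adjusted p = 0.0183, edgeR) and chi-miR-107-3p (1.67, adjusted p = 0.00109).

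**Figure D5:**
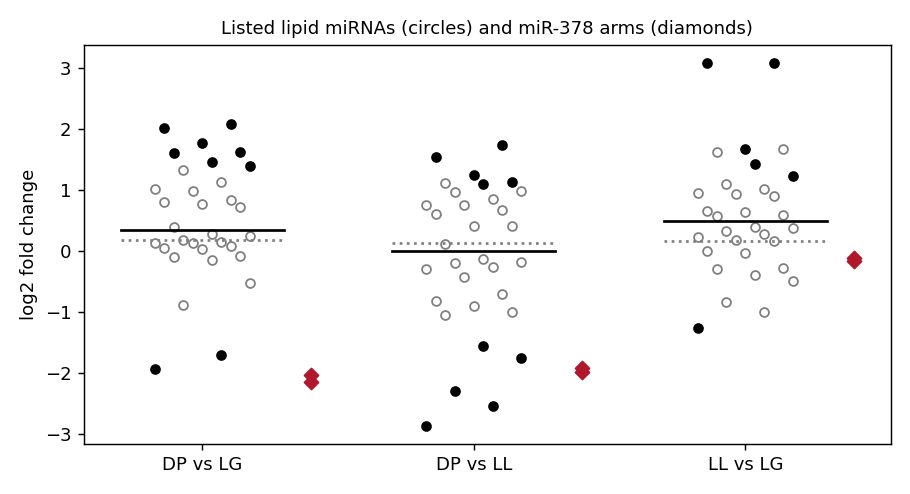
Log2 fold change (vertical axis) of the 32 tested arms of the listed lipid miRNAs in each comparison, filled where called, with their median (solid line), the median of all 696 tested miRNAs (dotted line) and both arms of miR-378 (diamonds). The listed arms spread to both sides of 0 in each comparison, and the diamonds lie near −2 in the comparisons with DP.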

How the data were processed

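Small RNA of 18 to 30 nucleotides was sequenced from 1 mammary sample of each of 9 goats. Per the study's methods, reads were trimmed and known and predicted miRNAs were quantified with miRDeep2 on ARS1.2. The submitters' processing notes name FastQC 0.11.9, cutadapt 4.2 and Bowtie 1.1.1, whereas the methods name Trimmomatic. The values deposited by the authors are raw read counts per mature miRNA, not normalized. The deposited LL replicate 3 column was read as estimated counts, since 2 rows end in 0.5, and was rounded.

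Counts were fitted with edgeR 4.0.16 (R 4.3.3), with TMM scaling, glmQLFit and glmQLFTest, all 9 libraries and stage as the only term. DESeq2 1.42.0 and limma-voom (limma 3.58.1) were alternatives, as were other scalings and limits on low counts. The fit was tested on simulated data. SE is the absolute log2 fold change divided by the square root of F. Arm ratios used exact permutation tests, which took 0.5 added to each count. Since reads copied by PCR are not separate molecules, the intervals and floors hold counting error alone. The tests behind the adjusted p-values weigh a stage difference against the spread between these goats. That spread is estimated from all libraries, with information shared over the tested miRNAs.

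All rows of the 3 hairpins are described. Of the marker lists the most abundant member is named, of the lipid list the 3 called members with the highest mean CPM per comparison, and for the most abundant arm of miR-378 and of miR-33 the 3 known miRNAs of at least 10 CPM with the closest profile. Other list members are given in counts, except chi-miR-182, chi-miR-183, chi-miR-96 and the arms of miR-223. The members and lists were chosen with earlier results of these data known. Libraries of other lactation stages were not analysed here, and 1 lipid miRNA (miR-185), 1 epithelial miRNA (miR-205) and 2 of the blood and immune list were not found among the rows used here.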

Additional observations from a re-analysis of the deposited data

How the results depend on the processing

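Of 225 alternative fold changes of the tested arms, 215 kept their side of the limits for a call, 2 lost a call, 8 gained one and 0 changed direction. Those that changed were all of chi-miR-33a-5p, as its adjusted p in DP vs. LG became 0.0258 with DESeq2, 0.0480 with upper quartile scaling, 0.0496 with DESeq2 size factors, 0.0490 with library size only, 0.0389 without chi-miR-148a-3p, 0.0498 with no limit on low counts and 0.00940 without DP replicate 3. It was not retained when 10 counts in every library were required. The exact permutation p of the miR-33a arm ratio ranged from 0.0214 to 0.0679 with 1 library left out. The number of all miRNAs called in LL vs. LG was 144 when only these stages were fitted and 33 to 125 with 1 library left out, against 89 with all, and the cause was not tested. It was 33 when LL replicate 1 was left out and 36 for LL replicate 2, and 54 for LG replicate 1 and 41 for LG replicate 3. Libraries with the same replicate number come from different goats, so the numbers were not taken as pairs. Deviations of such libraries correlated between −0.101 and 0.214, and those of libraries with different numbers between −0.230 and 0.149. With the replicate number as a block, chi-miR-33a-5p was called in DP vs. LG (log2 fold change −1.62, adjusted p = 0.0430, edgeR), giving 3 called arms there, with 3 against LL and 0 between LL and LG. Depth limits miR-33b and the 5p arm of miR-33a, which have few counts per library.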
